A study of Homo sapiens with 12 samples.

Results

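The study arrays were read for 10 genes of the NF-kB pathway: the receptor CD40, the adaptors TRAF3 and TRAF1, the ubiquitin ligase BIRC3, the subunit genes NFKB1, NFKB2 and RELB, and the inhibitors NFKBIA, TNFAIP3 and CYLD. They were taken by name, and every probe set that the array annotation assigns to 1 of them alone was used. Of the 10 genes, 9 had such a probe set, 24 in all, out of 54613 probe sets and 19775 genes measured. BIRC3 is named by no probe set in the annotation used and was not analysed here. RNA came from KMS-11/Cfz and KMS-34/Cfz, the carfilzomib-resistant derivatives of 2 human multiple myeloma lines, and from their parental lines KMS-11 and KMS-34. The derivatives tolerated 12 nM carfilzomib, an inhibitor of the proteasome, and had been cultured without it for 1 week, whereas the parental cells were never selected. A single resistant culture was derived from each line by stepwise exposure, and all 4 groups grew in RPMI 1640 with 4% serum by the sample labels, whereas the study's methods give another serum level. Each group has 3 replicates, which no source describes as separate cultures, so p-values measure the spread between these 12 arrays.

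NF-kB factors are dimers that inhibitors such as the NFKBIA product hold in the cytoplasm. Receptors of the tumour necrosis factor family switch on a canonical route, in which the inhibitor is degraded by the proteasome, and a non-canonical route, in which the NFKB2 precursor is trimmed by the proteasome and pairs with RELB. TRAF3 and BIRC3 keep the non-canonical kinase NIK low, TNFAIP3 and CYLD remove or edit the ubiquitin chains that carry the signal, and NFKBIA, TNFAIP3, NFKB1, NFKB2, RELB and TRAF1 are themselves classical NF-kB target genes. The pathway is well known in myeloma, where mutations in its regulators recur.

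Start-site windows of the members in RefSeq (GRCh38.p14, 250 bases before to 50 bases after the start) were searched for the kappaB consensus on both strands, with overlapping matches counted separately. Windows were found for 8 of the 10 genes, with RELB and CD40 the others. At least 1 match lay in a window of 7 of these 8 genes, and in 9 of their 15 windows, against 11.3% of all 35116 windows and 13.3% of 27305 genes. Of 78 genes with a window in the wider pathway list used further below, 34.6% held a match. The 3 TRAF1 windows held none. A match is a description of the letters and not a site of binding. The windows below belong to TNFAIP3, NFKB1 and TRAF3, the genes called in KMS-34/Cfz for which a window was found, and to NFKBIA and NFKB2, which were lower in KMS-34 than in KMS-11. TRAF1 and CYLD were lower in KMS-34 too and are not shown. The other NFKB1 window, with 0 matches, and the other NFKB2 windows, with 0 and 2, are not shown either. Each window shown thus holds a match. Matches are in capitals.
TNFAIP3, chr6:137867009-137867308, plus strand, 2 matches: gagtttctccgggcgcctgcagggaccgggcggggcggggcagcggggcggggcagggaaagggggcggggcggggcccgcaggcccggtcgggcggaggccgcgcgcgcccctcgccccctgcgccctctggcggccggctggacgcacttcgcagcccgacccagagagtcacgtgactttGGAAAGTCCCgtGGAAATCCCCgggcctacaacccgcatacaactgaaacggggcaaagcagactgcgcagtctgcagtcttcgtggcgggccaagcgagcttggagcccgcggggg
TRAF3, chr14:102777199-102777498, plus strand, 1 match: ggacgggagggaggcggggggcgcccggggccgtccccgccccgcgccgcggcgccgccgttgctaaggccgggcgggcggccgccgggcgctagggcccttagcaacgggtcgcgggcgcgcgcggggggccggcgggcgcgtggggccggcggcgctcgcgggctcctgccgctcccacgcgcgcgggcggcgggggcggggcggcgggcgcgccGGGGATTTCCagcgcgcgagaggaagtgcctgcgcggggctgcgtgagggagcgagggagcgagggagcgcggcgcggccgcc
NFKBIA, chr14:35404700-35404999, minus strand, 1 match: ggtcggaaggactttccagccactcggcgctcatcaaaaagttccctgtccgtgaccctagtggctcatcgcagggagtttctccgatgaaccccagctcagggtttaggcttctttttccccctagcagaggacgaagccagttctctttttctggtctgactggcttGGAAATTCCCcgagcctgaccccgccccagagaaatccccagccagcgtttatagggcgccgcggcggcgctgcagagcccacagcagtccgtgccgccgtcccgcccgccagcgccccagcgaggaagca
NFKB1, chr4:102501109-102501408, plus strand, 1 match: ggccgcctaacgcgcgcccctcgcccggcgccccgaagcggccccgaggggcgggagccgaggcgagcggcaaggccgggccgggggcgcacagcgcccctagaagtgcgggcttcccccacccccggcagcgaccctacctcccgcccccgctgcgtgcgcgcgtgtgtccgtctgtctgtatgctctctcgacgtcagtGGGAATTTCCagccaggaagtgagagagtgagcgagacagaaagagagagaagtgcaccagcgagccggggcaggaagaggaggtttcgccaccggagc
NFKB2, chr10:102394328-102394627, plus strand, 3 matches of which 2 overlap: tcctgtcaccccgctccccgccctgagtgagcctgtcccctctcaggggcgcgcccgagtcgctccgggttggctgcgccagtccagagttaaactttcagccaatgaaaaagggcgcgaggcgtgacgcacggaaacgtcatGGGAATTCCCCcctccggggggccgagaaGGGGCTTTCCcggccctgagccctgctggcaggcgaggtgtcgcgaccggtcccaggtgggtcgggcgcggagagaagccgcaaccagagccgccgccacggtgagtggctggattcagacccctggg
The paired TNFAIP3 matches, GGAAAGTCCC and GGAAATCCCC, started 67 and 55 bases before the start site. The NFKBIA match, GGAAATTCCC, began 81 bases before it, and that of NFKB1, GGGAATTTCC, 49 bases before it. The TRAF3 match, GGGGATTTCC, began 33 bases before it. In the NFKB2 window, GGGAATTCCC and GGAATTCCCC shared 9 of their letters.

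The values are log2 signals that were centred probe set by probe set, so each gives a difference from other arrays and no level of expression. A gene is the mean of its probe sets, and a change is a difference between group means on the log2 scale with its standard error. Rises and falls named here had a limma p, adjusted over 19775 genes, under 0.05. Pearson's r between arrays of the same group was 0.759 to 0.949. Replicate 3 of KMS-11 and the first replicates of KMS-34/Cfz and KMS-34, 3 arrays in all, deviated from their groups together (r of the deviations 0.33 to 0.52), and counts are given without them where they change. Since the values hold no level, the myeloma identity of the cells could not be checked from markers. Between groups, 0 of the B cell, T and NK cell and stromal markers passed the test in either derivative. Of 3 monocyte markers 1 fell in KMS-34/Cfz. Of 8 plasma cell markers 3 fell there (PRDM1, IRF4 and SLAMF7), which is 37.5% against 4.69% of all genes. In KMS-11/Cfz 2 fell (MZB1 and SLAMF7), which is 25% against 1.94%. Over both lines together 4 of the 8 fell and 1, CD38, rose (0.39, adjusted p = 0.016). The part of these markers in the results was not tested. A total RNA extract cannot tell fewer expressing cells from less RNA per cell. The sample-by-sample plot of the 9 genes shows the values that follow.

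**Figure D1:**
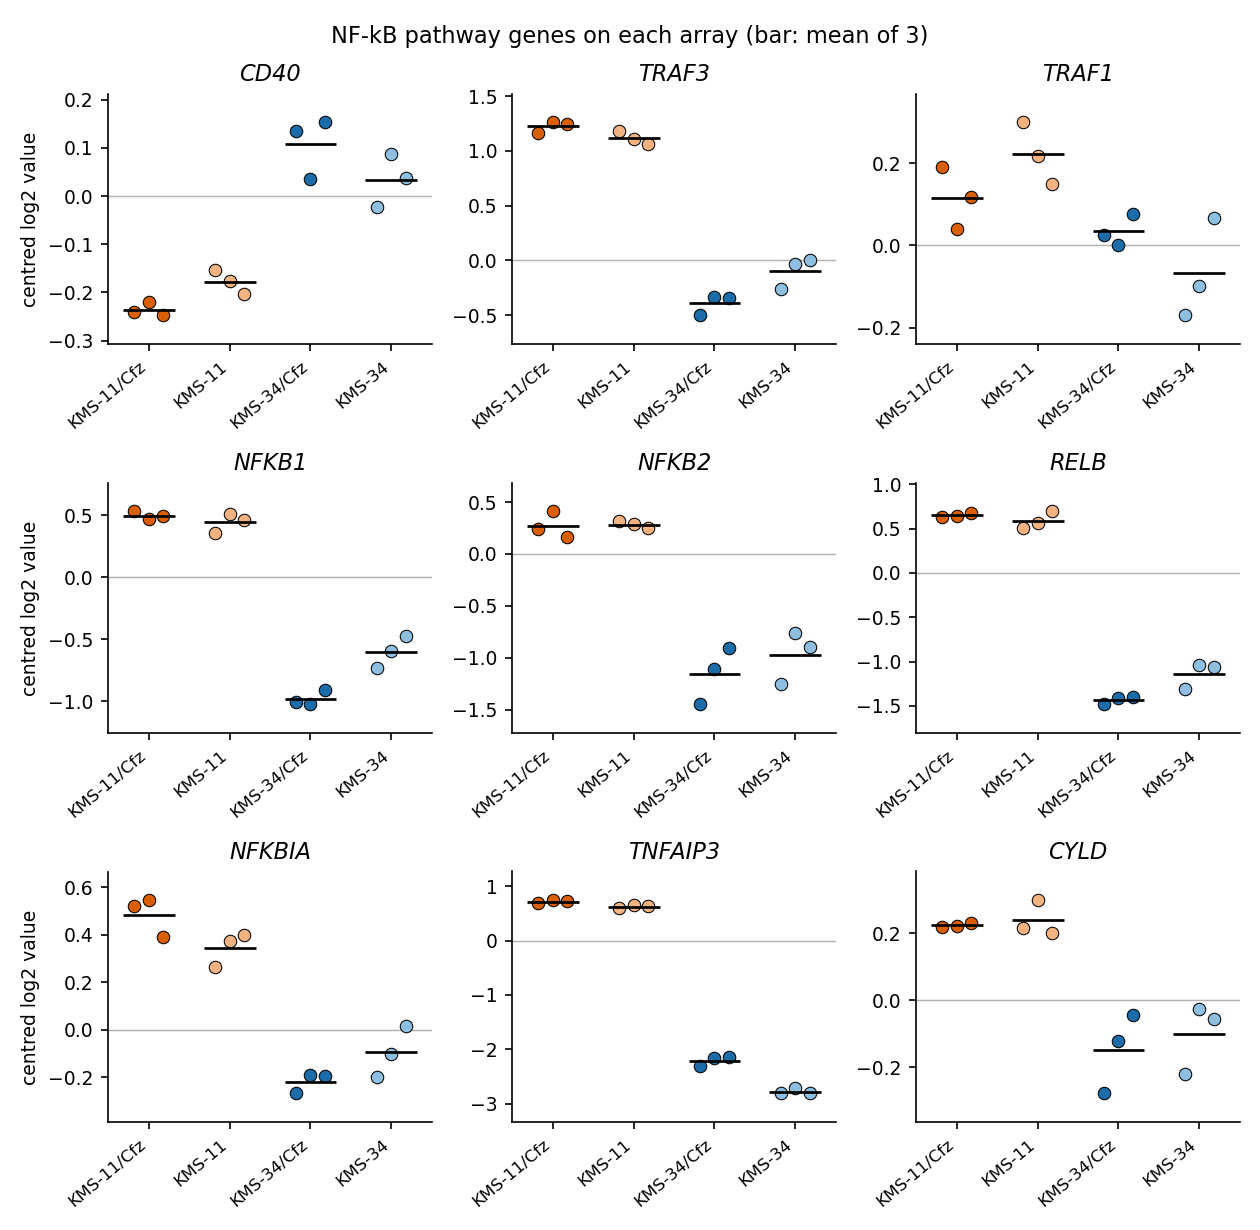
Centred log2 value (vertical axis, a separate scale for each gene) of the 9 genes on each of the 12 arrays, with the group mean as a bar. 8 genes lay lower and CD40 higher in parental KMS-34 than in parental KMS-11, and TNFAIP3 stood between -2.31 and -2.15 in KMS-34/Cfz against -2.81 to -2.72 in KMS-34.

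The resistant derivatives were first set against their own parental lines. In KMS-11/Cfz no gene of the 9 passed the test, and in KMS-34/Cfz 4 did. There, TNFAIP3 rose and NFKB1, TRAF3 and RELB fell. TNFAIP3, which encodes the ubiquitin-editing enzyme A20 that ends NF-kB signalling, was -2.31, -2.16 and -2.15 on the KMS-34/Cfz arrays, against -2.81, -2.72 and -2.80 on the KMS-34 arrays. The lowest resistant array lay above the highest parental one. The rise was 0.57 ± 0.06 (SE, n = 3 each, adjusted p = 5.9e-05), or 1.48-fold. Both TNFAIP3 probe sets rose, 202643_s_at by 0.49 and 202644_s_at by 0.65. Without the 3 deviating arrays the rise was 0.60. Under cyclic loess scaling it was 0.45 and no longer passed the test (adjusted p = 0.61); that scaling fits its curve on averages of centred values, which are no level.

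NFKB1, which encodes the precursor of the canonical subunit p50, was -1.01, -1.03 and -0.91 in KMS-34/Cfz, against -0.73, -0.60 and -0.48 in KMS-34. The groups did not overlap, and NFKB1 fell by 0.38 ± 0.07 (SE, n = 3 each, adjusted p = 0.0041). Of the 5 measured genes on either side of NFKB1 on the chromosome, 6 of the 10 fell as well in KMS-34/Cfz, with a median of -0.40 and a lowest value of -1.03. In KMS-11/Cfz 0 of these neighbours changed. The part that the chromosome region plays in the NFKB1 value was not tested.

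RELB, the partner of the processed NFKB2 product, was -1.48, -1.41 and -1.40 in KMS-34/Cfz, against -1.31, -1.04 and -1.06 in KMS-34. It fell by 0.29 ± 0.08 (SE, n = 3 each, adjusted p = 0.027), with all resistant arrays below all parental ones. TRAF3, the adaptor that restrains the non-canonical route, was -0.50, -0.34 and -0.34 in KMS-34/Cfz, against -0.26, -0.03 and 0.00 in KMS-34. It fell by 0.30 ± 0.08 (SE, n = 3 each, adjusted p = 0.029), and the arrays again did not overlap. The TRAF3 fall was seen on 221571_at, at -0.42 (adjusted p = 0.0067 over probe sets), and was -0.17 (-0.41 to 0.07, 95% confidence interval) on 208315_x_at, a probe set of a class that may bind other transcripts. The neighbours of RELB and TRAF3 stayed at medians of -0.07 and 0.04. Both calls rested on few arrays. Each of them ended without replicate 2 or 3 of KMS-34 and without replicate 1 or 2 of KMS-34/Cfz, at adjusted p = 0.053 to 0.11 for RELB and 0.053 to 0.12 for TRAF3, and a fit of the 2 KMS-34 groups alone gave 0.14 and 0.16. RELB also missed the threshold over probe sets (0.056) and with the probe set of largest variance for each gene (0.051). Without all 3 deviating arrays, RELB was -0.35 (adjusted p = 0.005) and TRAF3 was -0.33 (adjusted p = 0.01).

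Over the 9 genes, 1 rose and 3 fell in KMS-34/Cfz, where 5.4% of all genes rose and 4.69% fell. In KMS-11/Cfz, 0 of 9 passed at the adjusted threshold and 0 of 9 at an unadjusted p under 0.05, where 1.63% of all genes rose and 1.94% fell. These shares rest on few arrays. In KMS-11/Cfz 322 genes rose and 384 fell, against 141 to 197 and 187 to 219 without any single array of that line, and 492 and 575 without replicate 1 of KMS-34/Cfz. In KMS-34/Cfz the 1068 rises were 1704 without replicate 1 of KMS-34/Cfz and 677 without replicate 2. Of all genes called in KMS-11/Cfz, 45.6% had risen, and 66.1% had under cyclic loess. In KMS-34/Cfz these shares were 53.5% and 46.9%. By probe set, 4 of 24 changed in KMS-34/Cfz (2 up and 2 down), where 7.05% of all probe sets did, and 0 of 24 in KMS-11/Cfz, where 1.75% did. The changes in KMS-11/Cfz ran between -0.11 for TRAF1 and 0.14 for NFKBIA, and the 95% confidence intervals of all 9 lay within -0.30 to 0.29. TNFAIP3 was 0.69, 0.74 and 0.72 in KMS-11/Cfz against 0.60, 0.65 and 0.63 in KMS-11, which is a difference of 0.09 ± 0.06 (adjusted p = 0.61) although the arrays did not overlap. The CD40 arrays of KMS-11/Cfz likewise lay below those of KMS-11 without a call.

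The 5 remaining genes did not pass the test in KMS-34/Cfz. CD40, the receptor, differed by 0.07 (95% confidence interval -0.05 to 0.20), and TRAF1, an adaptor that NF-kB itself induces, by 0.10 (-0.06 to 0.26). NFKBIA, the inhibitor of the canonical route, differed by -0.12 (-0.28 to 0.03), and CYLD, a deubiquitinase, by -0.05 (-0.21 to 0.11). NFKB2 had the widest interval, -0.48 to 0.10 around -0.19. Its arrays ran between -1.45 and -0.91 in KMS-34/Cfz and between -1.25 and -0.76 in KMS-34. The arrays of both groups overlap for each of these 5 genes. Of the 10 neighbours of NFKB2 on the chromosome, 4 fell in KMS-34/Cfz, with a median of -0.27, and 0 changed in KMS-11/Cfz. Their part in the NFKB2 value was not tested.

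**Figure D2:**
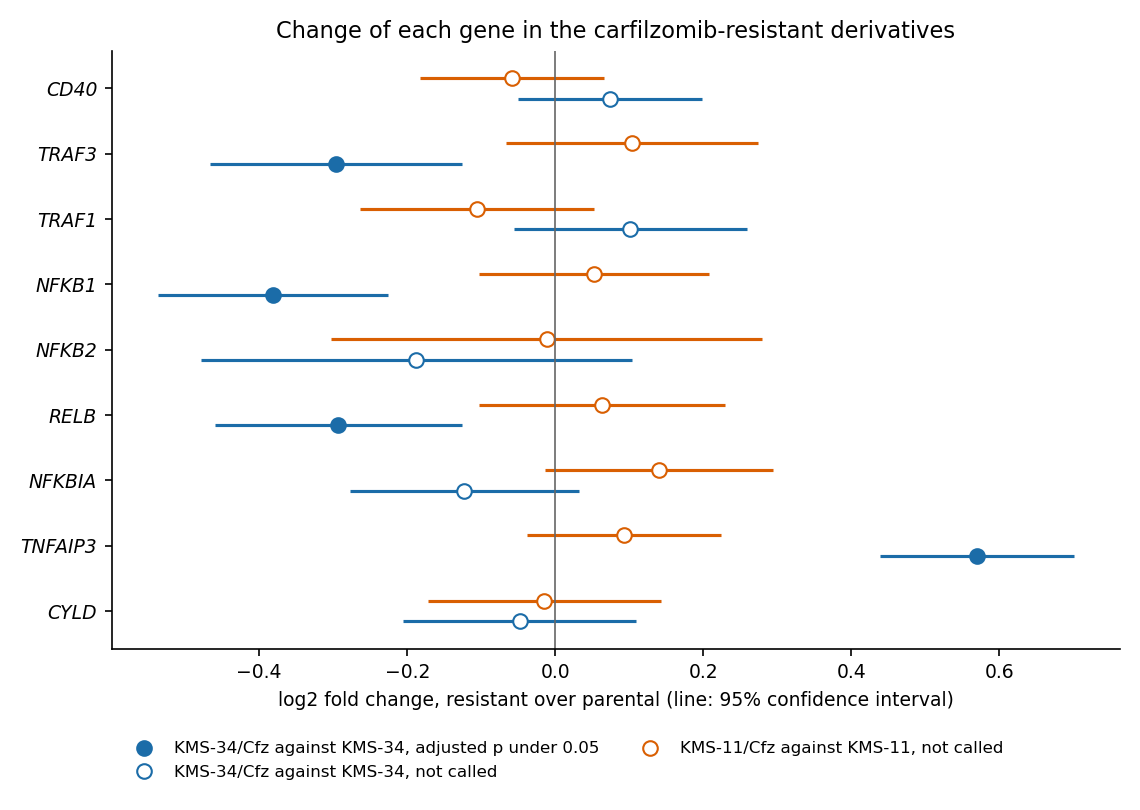
Log2 fold change (horizontal axis, derivative over its parental line) for each gene in both lines, with 95% confidence intervals. Filled points passed the test. These are TNFAIP3 at 0.57, NFKB1 at -0.38, TRAF3 at -0.30 and RELB at -0.29, all in KMS-34/Cfz.

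Whether the response to selection differed between the lines was tested as the KMS-34 change minus the KMS-11 change. The difference was 0.48 ± 0.09 for TNFAIP3 (adjusted p = 0.0047), turning to -0.68 (adjusted p = 0.57) under cyclic loess, where the KMS-11/Cfz change was 1.13 and did not pass. It was -0.43 ± 0.10 for NFKB1 (adjusted p = 0.022). TNFAIP3 and NFKB1 are thus 1 gene up and 1 down of 9, where 3.7% of all genes were called upward and 2.74% downward. The share of upward calls over all genes, 57.5%, was 36.7% under cyclic loess. Adjusted over probe sets, the only NFKB1 probe set missed the threshold (adjusted p = 0.054). Of TNFAIP3, 202644_s_at passed (adjusted p = 0.0097) and 202643_s_at did not (adjusted p = 0.065). The NFKB1 difference lost its call without replicate 1 of KMS-11, replicate 1 or 3 of KMS-11/Cfz, replicate 3 of KMS-34 or replicate 2 of KMS-34/Cfz (adjusted p = 0.052 to 0.067). TRAF3, at -0.40 (adjusted p = 0.0502), and RELB, at -0.36 (adjusted p = 0.076), missed the threshold. Both passed without KMS-34 replicate 1 (adjusted p = 0.015 and 0.019), without the 3 deviating arrays (0.02 and 0.0072), and in a fit blocked by replicate number (0.045 and 0.044). The mean change over both lines passed for TNFAIP3 alone, at 0.33 ± 0.04 (adjusted p = 0.00038), where 3.99% of genes rose and 3.86% fell; under cyclic loess it was 0.79 with an adjusted p = 0.13. NFKB1 stood at -0.16 (adjusted p = 0.071) and passed without KMS-34 replicate 1, at -0.20 (adjusted p = 0.033).

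The parental lines differed far more than the derivatives did from their parents. All 9 genes passed the test, 8 lower and 1 higher in KMS-34 than in KMS-11. Over all genes, 20.5% passed as lower and 21.6% as higher. The arrays of the lines did not overlap for any of the 9. The share of all genes without overlap was not counted, so this is no separate result. The median of the 9 was -1.04, against 0.02 for all genes. TNFAIP3 was -2.81, -2.72 and -2.80 in KMS-34, against 0.60, 0.65 and 0.63 in KMS-11, a difference of -3.40 ± 0.06 (SE, n = 3 each, adjusted p = 4.5e-14). This is 10.6-fold lower in KMS-34 and the 95th largest difference of 19775 genes. The 10 neighbours of TNFAIP3 had a median of 0.02.

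Of the subunit genes, RELB was -1.31, -1.04 and -1.06 in KMS-34, against 0.50, 0.57 and 0.69 in KMS-11, which is 3.31-fold lower (-1.73 ± 0.08, adjusted p = 3.6e-10). NFKB2 was -1.25, -0.76 and -0.89 in KMS-34, against 0.32, 0.28 and 0.25 in KMS-11 (-1.25 ± 0.13, adjusted p = 3.0e-06). NFKB1 was -0.73, -0.60 and -0.48 in KMS-34, against 0.36, 0.51 and 0.46 in KMS-11 (-1.04 ± 0.07, adjusted p = 3.2e-08). Each of the 3 subunit genes was at least 2.06-fold lower in KMS-34. The NFKB1 neighbours had a median of -0.03, the RELB neighbours 0.02 and the NFKB2 neighbours 0.41, of which 8 of 10 were higher in KMS-34.

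Among the adaptors, TRAF3 was -0.26, -0.03 and 0.00 in KMS-34, against 1.18, 1.11 and 1.06 in KMS-11, a difference of -1.21 ± 0.08 (SE, n = 3 each, adjusted p = 1.7e-08) or 2.32-fold lower, and of -0.53 under cyclic loess. Of its 10 neighbours, 8 were also lower in KMS-34, with a median of -0.54 and a range of -1.36 to -0.02. Their part in the TRAF3 difference was not tested. TRAF1 differed less, at -0.29 ± 0.07 (adjusted p = 0.0049). Its arrays were -0.17, -0.10 and 0.07 in KMS-34 and 0.30, 0.22 and 0.15 in KMS-11. CD40 was the only gene of the 9 that was higher in KMS-34, by 0.21 ± 0.06 (adjusted p = 0.0082), with -0.02, 0.09 and 0.04 in KMS-34 and -0.15, -0.18 and -0.20 in KMS-11.

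The other inhibitors moved in the direction of TNFAIP3. NFKBIA was -0.20, -0.10 and 0.01 in KMS-34, against 0.26, 0.38 and 0.40 in KMS-11, a difference of -0.44 ± 0.07 (adjusted p = 0.00015). CYLD was -0.22, -0.03 and -0.06 in KMS-34, against 0.21, 0.30 and 0.20 in KMS-11, a difference of -0.34 ± 0.07 (adjusted p = 0.0016). For both, the probe sets disagreed.

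Of the 24 probe sets, 13 were lower and 3 higher in KMS-34, where 34.8% of all probe sets passed in either direction. The TNFAIP3 probe sets gave -3.34 and -3.46. For NFKB2, 207535_s_at gave -1.88 and 209636_at -1.84, whereas 211524_at gave -0.04 (95% confidence interval -0.25 to 0.18). For NFKBIA, 201502_s_at gave -1.03, with -0.46, -0.27 and -0.24 in KMS-34 and 0.65, 0.79 and 0.68 in KMS-11, whereas 231699_at gave 0.15 (-0.07 to 0.36). On the first of these the line difference of NFKBIA was 2.04-fold. TRAF3 stood at -1.83 on 221571_at and -0.60 on 208315_x_at. The 7 CYLD probe sets ran from -0.81 on 39582_at to 0.31 on 222142_at, with 3 lower and 1 higher past the test. CD40 was higher on 205153_s_at (0.43) and 215346_at (0.32), and 0.01 on 35150_at. The files do not say which transcripts each probe set binds, and the centred values do not show which probe sets are dim.

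**Figure D3:**
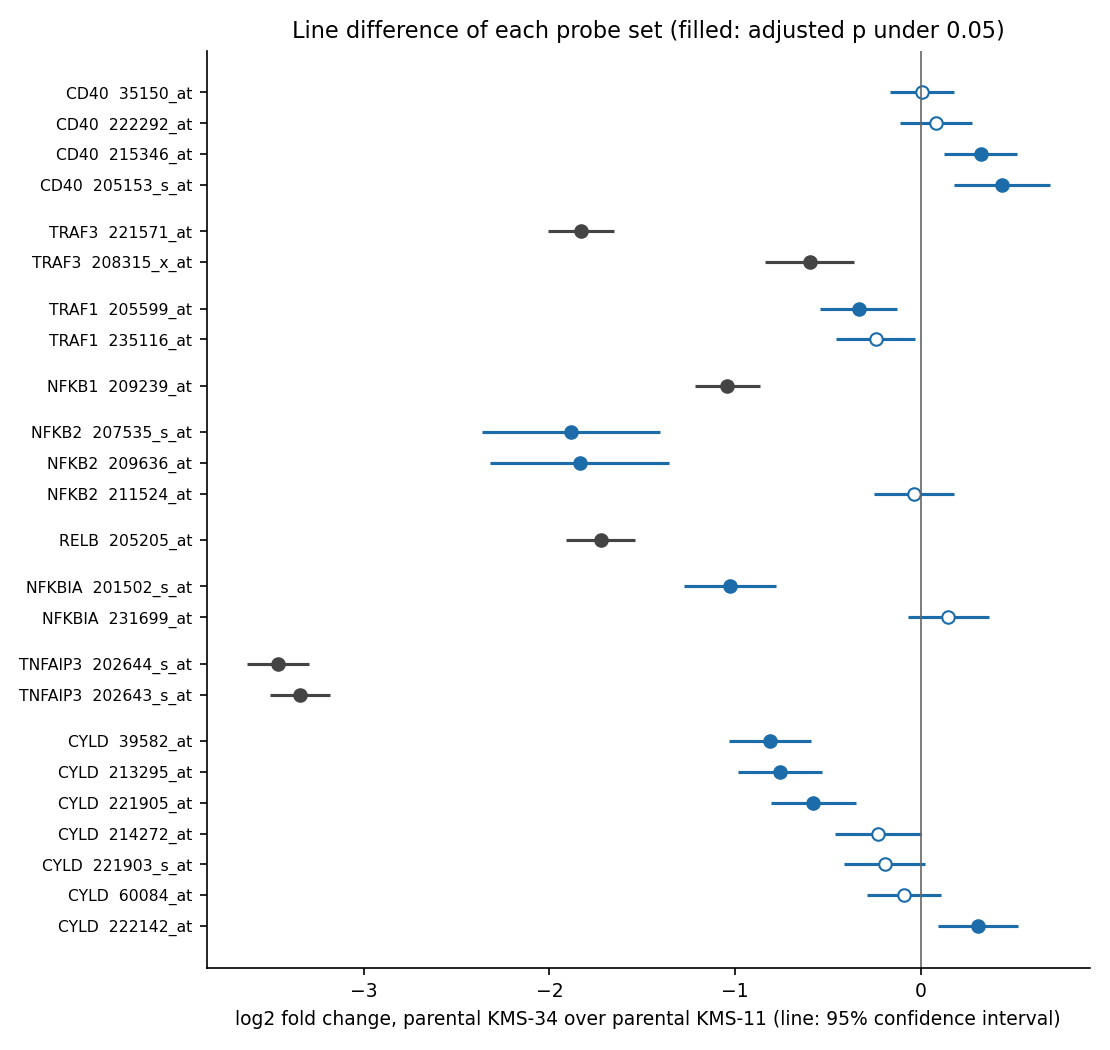
Log2 fold change of parental KMS-34 over parental KMS-11 (horizontal axis) for each of the 24 probe sets, grouped by gene, with 95% confidence intervals and filled points where the adjusted p over all probe sets was under 0.05. The TNFAIP3 probe sets lie together at -3.46 and -3.34, while NFKB2, NFKBIA, TRAF3 and CYLD each hold probe sets that differ from one another.

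The derivatives kept the line difference. Between KMS-34/Cfz and KMS-11/Cfz, 7 genes were lower and CD40 was higher, where 20.8% of all genes were lower and 22.5% higher. TRAF1, at -0.08 (95% confidence interval -0.24 to 0.08), did not pass. TNFAIP3 was -2.93 in this contrast, or 7.6-fold lower, against -3.40 between the parental lines. RELB was -2.08, TRAF3 -1.61, NFKB1 -1.48 and NFKB2 -1.43, and NFKBIA -0.70. Over the 4 groups, TRAF3, NFKB1, RELB and NFKBIA were highest in KMS-11/Cfz, then KMS-11, then KMS-34, and lowest in KMS-34/Cfz, whereas TNFAIP3 was lowest in KMS-34. The neighbours KMS-11/Cfz and KMS-11 in that order did not pass the test for any of these 5 genes, nor did KMS-34/Cfz and KMS-34 for NFKBIA, whose arrays overlap.

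Over the 12 arrays, line difference included, the 9 genes had a median r of 0.94 over 36 pairs, with a range of -0.95 to 0.99 in which CD40 was negative with each of the others. After the group means were taken out the median was 0.49, with a range of -0.15 to 0.89. The arrays share their line and, in 3 cases, the joint deviation, so these values are descriptive. The genes most like TNFAIP3 over the 12 arrays were FZD3 and HERC5 (r = 0.999 for both). Those most like NFKB1 were SPRY1 and TADA1 (r = 0.996 for both). CRTC2 and GLMP were most like RELB (r = 0.997 for both), and CRTC2 (r = 0.997) and EXOC1 (r = 0.996) most like TRAF3.

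A wider list of 91 other pathway genes, of which 84 had a value, showed how far the pathway moved beyond these genes. In KMS-34/Cfz, 9 of 84 (10.7%) rose and 2 (2.38%) fell, where 5.4% and 4.69% of all genes did, and the median was 0.02 against -0.01 for all genes. The largest rise was that of CCL5, a chemokine that NF-kB induces, by 0.56 ± 0.07 (adjusted p = 0.00024). It was 0.17, 0.31 and 0.43 in KMS-34/Cfz, against -0.33, -0.26 and -0.19 in KMS-34. ICAM1, an adhesion molecule and target gene, rose by 0.42 ± 0.09 (adjusted p = 0.0079), with -0.46, -0.17 and -0.03 in KMS-34/Cfz against -0.72, -0.61 and -0.61 in KMS-34. The other 25 target genes with a value did not pass the test.

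REL, the subunit gene that is most used in B cells, rose by 0.43 ± 0.06 (adjusted p = 0.0008) in KMS-34/Cfz. Its values were -0.92, -0.89 and -0.73 in KMS-34/Cfz, against -1.31, -1.23 and -1.31 in KMS-34. RELA, the other subunit gene of the list, was at -0.05 and did not pass. REL and the member subunit genes NFKB1 and RELB therefore went in opposite directions. The death ligand gene TNFSF10 rose by 0.50 ± 0.08 (adjusted p = 0.0016), with 0.32, 0.40 and 0.65 in KMS-34/Cfz against -0.09, 0.07 and -0.13 in KMS-34.

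The tumour necrosis factor receptor gene TNFRSF1B rose by 0.27 (adjusted p = 0.018), with 0.64, 0.73 and 0.84 in KMS-34/Cfz against 0.40, 0.50 and 0.50 in KMS-34. CD70, the ligand of CD27, fell by 0.50 ± 0.09 (adjusted p = 0.0037), with -0.55, -0.27 and -0.11 in KMS-34/Cfz against 0.11, 0.25 and 0.20 in KMS-34. Of the 16 adaptor genes with a value, 3 rose and the others did not pass. RBCK1, a part of the linear ubiquitin ligase, rose by 0.32, with -0.43, -0.24 and -0.33 in KMS-34/Cfz against -0.70, -0.62 and -0.65 in KMS-34. TAB3, which binds the kinase TAK1, rose by 0.33, with 0.06, 0.24 and 0.21 in KMS-34/Cfz against -0.25, -0.07 and -0.17 in KMS-34. MALT1, a protease of the antigen receptor route, rose by 0.24, with -0.24, -0.08 and -0.09 in KMS-34/Cfz against -0.39, -0.33 and -0.40 in KMS-34. For each of these 5 genes the groups did not overlap, but the genes were named for passing the test, so this is no separate result. Of the 8 kinase genes, 0 passed in either derivative, with changes of -0.23 to 0.39 in KMS-34/Cfz and -0.15 to 0.25 in KMS-11/Cfz.

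Among the inhibitors, NKIRAS1, a small GTPase that slows the decay of NF-kB inhibitors, fell by 1.43 ± 0.07 (adjusted p = 9.5e-08), or 2.7-fold, in KMS-34/Cfz. It was -1.38, -1.28 and -1.36 in KMS-34/Cfz, against 0.03, 0.21 and 0.03 in KMS-34. TAX1BP1, an adaptor of A20, rose by 0.38 ± 0.06 (adjusted p = 0.0014), with 0.18, 0.31 and 0.17 in KMS-34/Cfz against -0.16, -0.12 and -0.20 in KMS-34. The calls of CCL5, TNFSF10, CD70 and NKIRAS1 held under every alternative tried. A fit of the 2 KMS-34 groups alone ended the calls of ICAM1 (adjusted p = 0.068), RBCK1 (0.071), TAB3 (0.077), TNFRSF1B (0.13) and MALT1 (0.19), cyclic loess ended that of REL (0.13), and the probe set with the largest variance ended that of TAX1BP1 (0.063). Leaving out single arrays ended TAB3 (replicate 1 or 3 of KMS-34, replicate 2 or 3 of KMS-34/Cfz, 0.051 to 0.074), TNFRSF1B (replicate 1 of KMS-34, replicate 2 or 3 of KMS-34/Cfz, 0.054 to 0.071) and MALT1 (replicate 1 or 3 of KMS-34 or of KMS-11/Cfz, in part through the shared spread, and replicate 2 or 3 of KMS-34/Cfz, 0.052 to 0.12). The count of 11 was 24 without KMS-34/Cfz replicate 1 and 18 without the 3 deviating arrays.

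In KMS-11/Cfz, 1 of 84 rose and 1 fell (1.19% each), both target genes, where 1.63% and 1.94% of all genes did. PLEK, which encodes pleckstrin, rose by 0.33 ± 0.08 (adjusted p = 0.03), with 0.33, 0.26 and 0.36 in KMS-11/Cfz against -0.11, 0.08 and 0.01 in KMS-11. TNFAIP8 fell by 0.33 ± 0.08 (adjusted p = 0.037), with -0.17, -0.14 and -0.20 in KMS-11/Cfz against 0.17, 0.22 and 0.08 in KMS-11. The TNFAIP8 call ended without any single array of the 6 of that line (adjusted p = 0.062 to 0.16), and the PLEK call without any of them but KMS-11 replicate 2 (0.066 to 0.15). The count of 2 was thus 0 or 1 without an array of that line, and 4 without replicate 1 of KMS-34/Cfz or replicate 2 of KMS-34, which enter through the shared spread. Tested between the lines, the KMS-34 change minus the KMS-11 change was positive for 5 genes. These were ICAM1 (0.63 ± 0.13), REL (0.51 ± 0.09), CCL5 (0.48 ± 0.10), BCL2L1, a survival gene (0.42 ± 0.11), and MALT1 (0.35 ± 0.09). The difference was negative for NKIRAS1 (-1.61 ± 0.11) and CD70 (-0.56 ± 0.13). BCL2L1 passed in neither derivative, with -0.04, 0.06 and -0.003 in KMS-11/Cfz against 0.19, 0.18 and 0.19 in KMS-11. In KMS-34/Cfz BCL2L1 was 0.11, 0.30 and 0.37, against -0.09, 0.10 and 0.06 in KMS-34. ICAM1, without a call in KMS-11/Cfz, was 0.12, 0.09 and 0.11 there against 0.28, 0.37 and 0.30 in KMS-11. The MALT1 (adjusted p = 0.053 to 0.1) and BCL2L1 (0.053 to 0.091) differences lost their calls without any single array other than replicate 2 of KMS-34 and replicate 1 of KMS-34/Cfz. The CD70 difference lost its call without replicate 1 of KMS-11, replicate 1 or 2 of KMS-11/Cfz or replicate 3 of KMS-34 (0.05 to 0.057). REL stood at 0.04 (adjusted p = 0.95) under cyclic loess. Of the 84 genes these are 5 upward (5.95%) and 2 downward (2.38%), where 3.7% and 2.74% of all genes were called. The count of 7 was 15 without replicate 1 of KMS-34/Cfz, and 4 without replicate 1 of KMS-11 or replicate 1 or 2 of KMS-11/Cfz. Over both lines together, 7 of 84 (8.33%) rose and 2 (2.38%) fell, where 3.99% and 3.86% of all genes did. The total of 9 was 15 without replicate 1 of KMS-34/Cfz, and 5 without replicate 1 or 2 of KMS-11/Cfz, replicate 3 of KMS-11 or replicate 1 of KMS-34.

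**Figure D4:**
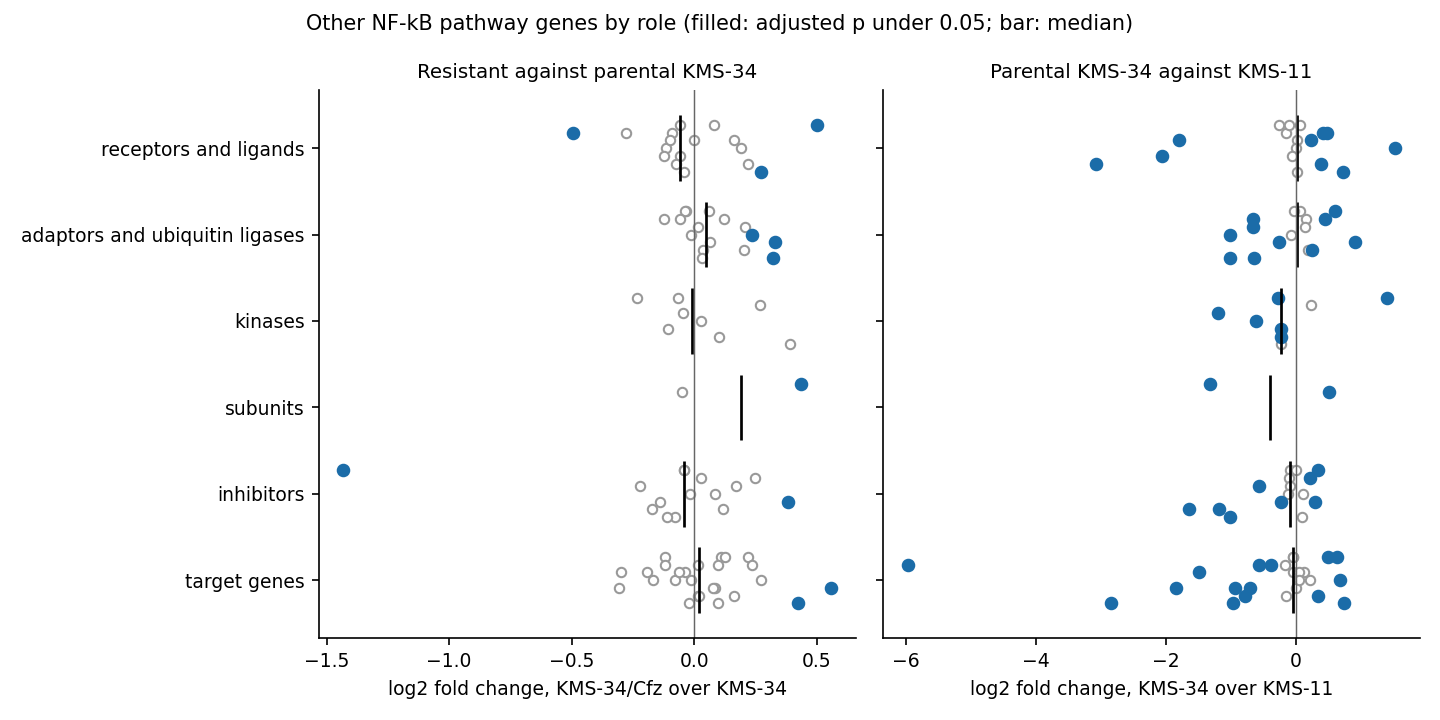
Log2 fold change (horizontal axes, different scales) of the 84 other pathway genes by role, for KMS-34/Cfz over KMS-34 on the left and parental KMS-34 over parental KMS-11 on the right. Filled points passed the test, bars are medians, and LTB is drawn with the ligands. NKIRAS1 at -1.43 lies lowest on the left and IL2RG at -5.98 on the right.

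Between the parental lines, 30 of 84 (35.7%) were lower and 20 (23.8%) higher in KMS-34, where 20.5% of all genes were lower and 21.6% higher. The median was -0.06. The largest differences were those of target genes that stood lower in KMS-34. IL2RG, the shared chain of cytokine receptors, was -4.28, -4.49 and -4.50 in KMS-34, against 1.60, 1.58 and 1.5 in KMS-11 (-5.98 ± 0.12, adjusted p = 1.4e-13). CD74, the invariant chain of class II molecules, was -2.20, -2.22 and -2.08 in KMS-34, against 0.70, 0.66 and 0.67 in KMS-11 (-2.84 ± 0.10, adjusted p = 3.8e-11). WNT10A (-1.84) and MYB (-0.94) were lower too. Of the 27 target genes with a value, 11 (40.7%) were lower and 5 (18.5%) higher, with LTB counted among both ligands and targets. The lymphotoxin genes LTB (-3.07 ± 0.07) and LTA (-2.07 ± 0.07) were lower, although cyclic loess gave 0.0097 for LTB (adjusted p = 0.95) and 0.21 between the derivatives, and IL1RAP (1.53) and TNFRSF1B (0.72) higher.

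The regulators moved both ways. Of 15 inhibitor genes with a value, 5 were lower and 3 higher in KMS-34. For the 8 kinase genes these counts were 5 and 1, and for the 16 adaptor genes 6 and 4. Over all genes, 20.5% were lower and 21.6% higher. The genes named have the smallest adjusted p of their role. Lower in KMS-34 were the inhibitor genes NFKBIE (-1.65), TNIP1 (-1.18), TNIP2 (-1.02) and OTUD7B (-0.57), of which the TNIP genes encode partners of A20. REL was lower (-1.32 ± 0.06) and RELA higher (0.52 ± 0.07). Among the kinases, IKBKE (-1.20), IKBKG (-0.61) and TBK1 (-0.27) were lower, whereas CHUK, a kinase that the non-canonical route needs, was higher, with 0.35, 0.37 and 0.01 in KMS-34 against -0.96, -1.20 and -1.31 in KMS-11 (1.40 ± 0.12, adjusted p = 2.1e-07). Among the adaptors, MALT1 (-1.01), TRAF5 (-1.01) and RBCK1 (-0.64) were lower and MYD88 (0.91) higher. Under cyclic loess LTA (-0.24, adjusted p = 0.17), TRAF5 (-0.19, adjusted p = 0.13) and WNT10A (-0.78, adjusted p = 0.36) lost their calls, and the others named here held theirs. Between the derivatives, 31 of 84 (36.9%) were lower and 22 (26.2%) higher in KMS-34/Cfz than in KMS-11/Cfz, where 20.8% and 22.5% of all genes were. Of 8 plasma cell marker genes, 6 were higher in KMS-34 than in KMS-11, with a median of 0.72 over the 8, and their part in the line difference was not tested.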

How the data were processed

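Total RNA of 12 samples was hybridised to Affymetrix expression arrays. Signals were normalized by the authors with RMA, a method named in the submitters' processing notes without a version, and the deposited values are on the log2 scale (-7.75 to 8.64). In 99.99% of the 54613 probe sets, 3 to 9 of the 12 values lie below 0. The probe sets were thus centred before deposit on a reference that is not given in the sources used here, so a filter on dim probe sets could not be run. The number of arrays limits the precision. The platform annotation names 1 gene for 41091 probe sets, several for 1801 and none for 11721, and symbols were updated through gene numbers to RefSeq (41037 matched). Probe sets naming a gene alone were averaged into 19775 genes. All arrays entered 1 fit in limma 3.58.1 (R 4.3.3; lmFit, contrasts.fit and eBayes) with a mean per group and 6 contrasts. P-values are two-sided, Benjamini-Hochberg adjusted over all genes or all probe sets, with a threshold of 0.05. In data simulated for KMS-34/Cfz against KMS-34 (19775 genes), 75% of 100 changes of 0.5 and 99% of 100 changes of 1 were recovered. Among the unchanged genes there were 18 false calls. The simulated arrays varied independently, without a line difference or a joint deviation, and no change under 0.5 was simulated. Recovery in the real arrays was therefore not tested. The members and lists were chosen with earlier results of these data known. Named are all members, up to 4 genes per role and contrast of the wider list with the smallest adjusted p under 0.05, and the 2 genes most correlated with each member called in a derivative. Same-numbered replicates were not paired by any source. Alternatives were other gene summaries, scalings, variance models and thresholds, a replicate block, and omitted arrays; the joint omission of 3 arrays was chosen after seeing the data. Python 3.11.15 with pandas 2.3.3 and matplotlib 3.10.9 served for sequences and figures.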

Additional observations from a re-analysis of the deposited data

Results flagged for a closer look

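For 9 genes the change in KMS-34/Cfz differed from the change in KMS-11/Cfz by a test of the difference itself. Of the members these are TNFAIP3 (0.48, adjusted p = 0.0047) and NFKB1 (-0.43, adjusted p = 0.022). Adjusted over probe sets, the only NFKB1 probe set (adjusted p = 0.054) and 202643_s_at of TNFAIP3 (adjusted p = 0.065) missed the threshold. TNFAIP3 changed by 0.57 in KMS-34/Cfz and 0.09 in KMS-11/Cfz, and NFKB1 by -0.38 and 0.05 in the same cells. Of the wider list these are ICAM1 (0.63), REL (0.51), CCL5 (0.48), BCL2L1 (0.42), MALT1 (0.35), CD70 (-0.56) and NKIRAS1 (-1.61). Of the members 11.1% were called upward and 11.1% downward, and of the wider list 5.95% and 2.38%. Over all genes these shares were 3.7% and 2.74%. Under cyclic loess the TNFAIP3 difference turned in sign, and neither it nor that of REL passed the test. The calls of NFKB1, MALT1, BCL2L1 and CD70 each ended when certain single arrays were left out. The cause of the differences between the lines was not tested.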

How the results depend on the processing

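The members' values kept their direction and side of the threshold in 1239 of 1278 comparisons with an alternative, 17 gained a call, 21 lost one and 1 turned in sign. For the named genes of the wider list 1616 of 1736 were the same, 118 lost a call and 2 turned. The values that turned were the TNFAIP3 difference between the changes in both lines (-0.68) and LTB in KMS-34 over KMS-11 (0.0097) and in KMS-34/Cfz over KMS-11/Cfz (0.21), all under cyclic loess, whose curve is fitted on averages of centred values. Members called in KMS-34/Cfz, 4 in the report, were 2 when the 2 groups were fitted alone and 2 at an adjusted p under 0.01, and 2 to 4 with single arrays left out. Members whose change differed between the lines, 2 in the report, were 4 with the replicate block, 4 with array weights, 4 without the 3 deviating arrays, 1 at the stricter threshold and 1 to 4 with single arrays left out. Members called over both lines, 1 in the report, were 2 with array weights and 1 to 2 with single arrays left out. Genes of the wider list called in KMS-11/Cfz, 2 in the report, were 0 with the probe set of largest variance, 8 with the groups alone, 5 under cyclic loess, 8 with array weights, 0 at the stricter threshold and 0 to 4 with single arrays left out. Those called in KMS-34/Cfz, 11 in the report, were 6 with the groups alone, 31 with array weights, 18 without the 3 arrays and 8 to 24 with single arrays left out. Those called over both lines, 9 in the report, were 4 with the probe set of largest variance, 21 with array weights, 4 at the stricter threshold and 5 to 15 with single arrays left out. Those that differed between the lines, 7 in the report, were 13 under cyclic loess, 31 with array weights, 3 at the stricter threshold and 4 to 15 with single arrays left out. The array weights did not settle, with 19.4 for KMS-34/Cfz replicate 2 and 0.17 for replicate 1. TRAF1 passed between the derivatives under array weights. The replicate block changed no other count of members. Same-numbered arrays deviated with r of -0.32 to 0.52 over 18 pairs, and differently numbered arrays of different groups with -0.50 to 0.47. Since these ranges overlap, they cannot decide whether the numbers pair the arrays. Counts of members and of the wider list between the parental lines and between the derivatives stayed within 1.5 times under every alternative. Over all genes, single arrays left out gave 437 to 1245 upward and 327 to 690 downward differences between the lines (732 and 542 in the main setting), and 505 to 1254 rises and 491 to 869 falls over both lines (789 and 763). Array weights gave 2631 rises and 2481 falls in KMS-34/Cfz, 2034 and 1894 over both lines, 921 and 1113 in KMS-11/Cfz, 2237 and 1825 for the difference, and 6252 and 7025 between the derivatives (4444 and 4115). With the 2 groups fitted alone, KMS-11/Cfz had 649 rises and 725 falls, and KMS-34/Cfz 435 and 319. Cyclic loess gave 572 and 985 for the difference and 568 and 291 in KMS-11/Cfz. The stricter threshold gave 306 and 233 for the difference, 347 and 357 over both lines, 135 and 167 in KMS-11/Cfz, with KMS-34/Cfz at 561 and 461. Where no cause is named, the cause was not tested.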
